A study of Homo sapiens with 16 samples.

Results

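The experiment described here set cells labelled Huh7 that overexpressed MT1G (3 libraries) against cells labelled Huh7 that carried an empty vector (3 libraries), by sequencing of polyadenylated RNA. Huh7 is a human hepatocellular carcinoma line. The vector, its promoter, the way it was delivered, the time after delivery and whether the cells were a clone or a pool are not given in the sources used here, and nothing said that the replicates were separate cultures, so p-values measure the spread between these samples only. All genes with a mean of at least 10 normalized read counts over the 6 libraries were taken, which gave 13914 of the 59609 genes in the table. The whole series holds 16 samples. Depth ran from 16844722 to 26781600 reads a library, and changes of genes with few reads are the least precise.

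MT1G encodes a metallothionein, one of a family of small cysteine-rich proteins that bind zinc and copper and whose genes are switched on by metals through the transcription factor MTF1. Type I and type III interferons are secreted proteins that act through receptors, Janus kinases and a complex of transcription factors that contains IRF9, which binds the interferon-stimulated response element (ISRE) in front of antiviral genes. IRF3, activated by sensors of foreign RNA or DNA, can act on many of the same elements. Hepatocytes respond to interferons of both types.

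Across all tested genes, 1604 (11.5%) were higher and 1575 (11.3%) lower with MT1G than with vector, 3179 (22.8%) in all, by limma on log2(normalized read count + 1) with Benjamini-Hochberg adjustment at 0.05. The rises went further than the falls. At an absolute log2 change of at least 1 there were 289 rises and 69 falls, and at 2 there were 82 rises and 0 falls. Of the 82, 18 were on an interferon list and 64 were not. The counts leaned on single libraries: without vector replicate 2 they were 1054 higher and 825 lower, and without vector replicate 3 they were 1003 and 766. Every MT1G library lay above every vector library for 2633 of the 13914 tested genes, and below for 2853, so separate groups were common. The largest rises and falls named below were picked among genes with separate groups.

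**Figure D1:**
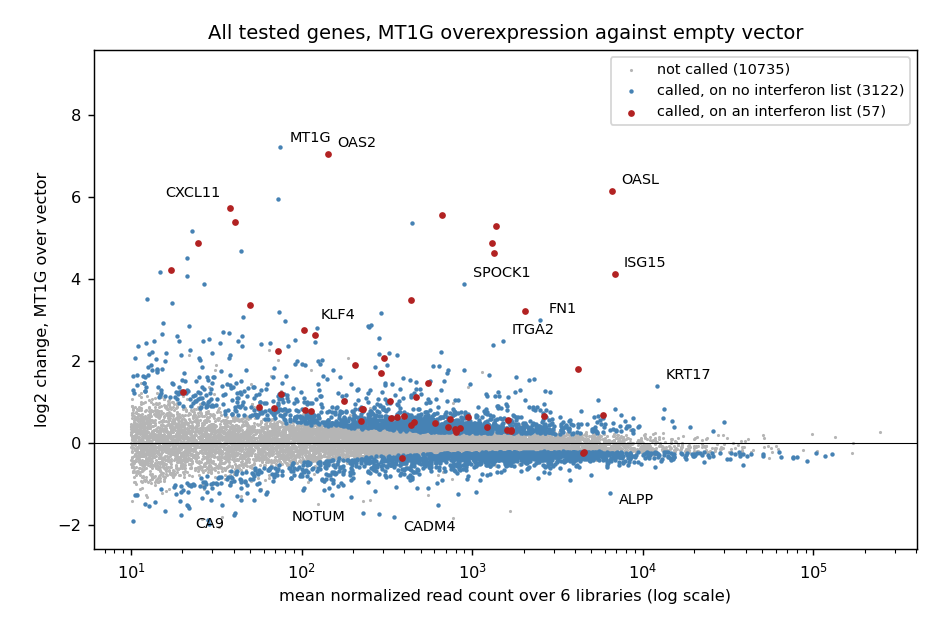
Each point is 1 of 13914 tested genes, with its mean normalized read count over 6 libraries on a log axis and its log2 change, MT1G over vector, on the other axis. Red points are the 57 called genes on interferon lists and blue points the 3122 called genes on none, and all 82 called changes of at least 2 are rises.

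MT1G (GRCh38 chromosome 16, 56666730 to 56668065) stood at 140.2, 130.2 and 179 in the MT1G libraries, against 0, 0 and 0 in the vector libraries. It was detected in every MT1G library and in no vector library, and its MT1G mean was 144 times a floor of 3 reads over the vector group. Such floors cover counting error only, and only that of the vector group. The transcripts the series title names with MT1G also moved. KLF4, a zinc finger transcription factor, stood at 399.6, 434 and 453 in the MT1G libraries, against 61.4, 52.8 and 60.7 in the vector libraries (log2 change 2.86, SE 0.14, adjusted p = 3.68e-12), and CA9, a carbonic anhydrase of the cell surface that rises in hypoxia, at 18.9, 11.6 and 26.3 in the MT1G libraries, against 62.5, 49.2 and 77.0 in the vector libraries (log2 change -1.73, SE 0.29, adjusted p = 0.00027). The groups did not overlap for either gene. DNMT1, the maintenance DNA methyltransferase, stood at 6547, 6241 and 6243 in the MT1G libraries, against 7612, 7687 and 7810.1 in the vector libraries (log2 change -0.28, SE 0.07, adjusted p = 0.00932), and its call was lost without vector replicate 2 or 3.

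Markers were checked against the label. Of 16 genes that define hepatocyte-lineage cells, 3 were tested: HNF4A, KRT8 and KRT18. ALB, APOB, TTR, SERPINA1, GPC3 and FOXA2 had 0 reads in all 6 libraries, and AFP had 7 reads in all, so the data go against the hepatocyte features of the label and the samples are called by their label only. Summed leukocyte markers, with 5 of 14 at 0, ran from 28.5 to 37.2 normalized read counts with MT1G and from 35.8 to 40.6 with vector, and endothelial markers, with 2 of 10 at 0, from 1520 to 1790 with MT1G and from 1941 to 2041 with vector. Stellate cell and fibroblast markers ran from 2716 to 3524 with MT1G and from 2218 to 2275 with vector, and bile duct markers from 21050 to 25090 with MT1G and from 17110 to 18580 with vector. Most of the bile duct sum was KRT7, with means of 21303 with MT1G and 16351 with vector. Of the 3 tested bile duct genes 2 were higher and 1, EPCAM, lower, with means of 433 with MT1G and 622 with vector. KRT19, SOX9, CFTR and SPP1 were under the mean of 10. The part of all these markers in the results was not tested. In bulk samples, fewer cells of a type and less RNA per cell cannot be told apart.

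The promoters of 4 genes that rose are shown because each holds the ISRE core (GAAA, any 2 bases, then GAAA), searched on both strands, with every match in capitals (overlapping matches run together). They are read 5′ to 3′ on the strand of the gene, from RefSeq on GRCh38.p14: ISG15 at chr1:1013339-1013444 on the plus strand, IFIT1 at chr10:89392462-89392574 on the plus strand, CXCL10 at chr4:76023664-76023747 on the minus strand and ISG20 at chr15:88638902-88639001 on the plus strand. The first match began 113, 116, 221 and 69 bases before the start in that order.
ISG15: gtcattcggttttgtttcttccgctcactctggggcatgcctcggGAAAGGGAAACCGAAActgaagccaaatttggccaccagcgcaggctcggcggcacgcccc
IFIT1: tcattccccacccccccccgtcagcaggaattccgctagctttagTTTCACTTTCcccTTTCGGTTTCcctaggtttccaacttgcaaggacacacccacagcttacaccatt
CXCL10: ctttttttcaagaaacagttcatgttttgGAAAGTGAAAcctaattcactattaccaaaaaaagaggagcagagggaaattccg
ISG20: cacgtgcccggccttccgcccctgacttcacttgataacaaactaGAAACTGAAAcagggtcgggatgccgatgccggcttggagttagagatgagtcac

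Promoters of 250 bases before to 50 after the start were on hand for 45 of the 54 interferon-list genes that were higher, and 28 of the 45 (62.2%) held the core. Among higher genes on no interferon list the share was 5.18% of 1254, among lower genes 2.43% of 1236, among genes not called 3.46% of 7725, and over all 27305 promoters 4.38%. The AP-1 letters TGANTCA, the site of FOS and JUN dimers, stood in 9.97% of promoters of higher genes outside the interferon lists, in 5.66% of lower genes, in 6.78% of genes not called and in 9.37% of all promoters. Of the 43 promoters of genes outside those lists that were higher by at least 2 on the log2 scale, 9 (20.9%) held it. These shares were counted separately for each motif and describe letters only.

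Of 153 genes on 9 interferon lists, 108 were tested, and 54 were higher and 3 lower with MT1G. Their median log2 change was 0.314 against -6.58e-05 over all tested genes, of which 11.5% were higher and 11.3% lower. The count of higher genes ran from 48 to 57 when each library was left out. The 3 lower genes were TRIM25, IFITM2, whose sequence is near that of IFITM3, and APOBEC3B, and without MT1G replicate 2 or vector replicate 2 or 3 none of the 108 was called lower; 1 was without vector replicate 1 and 5 were without MT1G replicate 1. The rise was uneven, with 14 genes up by at least 3 on the log2 scale beside 51 members that did not pass the test. Among the 14, OAS2, CXCL10, CXCL11 and RSAD2 had vector means of 1.56, 1.14, 0.597 and 1.17. Such genes passed the mean of 10 only through the MT1G libraries, and members near 0 in both groups are not among the 108.

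The ligands were at the edge of detection, and none of 13 interferon genes reached the mean of 10. IFNL1, a type III interferon, had 8.95, 6.98 and 8.05 normalized read counts in the MT1G libraries, against 0, 0 and 0 in the vector libraries, a mean 7.69 times the floor. IFNB1, the type I interferon made by most cells, had 2.98, 5.81 and 0.73 with MT1G, against 0, 0 and 0 with vector, a mean 3.06 times the floor. Both were seen in every MT1G library, from 26 and 9 reads. The counting error of these few reads is not in the folds.

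Of 14 tested receptor, kinase, STAT and feedback genes 5 were higher and 0 lower. JAK2, a kinase of cytokine receptors, stood at 111, 169.8 and 124 in the MT1G libraries, against 75.7, 75.2 and 74.7 in the vector libraries (log2 change 0.81, SE 0.18, adjusted p = 0.00234). STAT2, a transcription factor of the pathway, had a log2 change of 0.24, which did not pass the test (adjusted p = 0.0747). SOCS1, a feedback inhibitor of Janus kinases, had overlapping groups, at 21.9, 30.2 and 30.7 in the MT1G libraries, against 6.58, 23.3 and 8.17 in the vector libraries (log2 change 1.25, SE 0.40, adjusted p = 0.0312), and its call was lost without each of 5 of the 6 libraries. Without vector replicate 1 or 3 the list count was 3. Among 6 regulatory factors 2 were higher, or 1 when any one library other than MT1G replicate 2 was left out, and IRF1, itself an interferon target, stood at 452, 415 and 451 in the MT1G libraries, against 291, 277 and 280.0 in the vector libraries (log2 change 0.64, SE 0.11, adjusted p = 0.00021).

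The RNA and DNA sensors and their adaptors had 11 of 19 tested members higher and 1 lower, with a median of 0.562. DDX58 encodes RIG-I, which detects uncapped viral RNA, and stood at 739, 1015 and 676 in the MT1G libraries, against 71.3, 75.2 and 65.3 in the vector libraries (log2 change 3.48, SE 0.14, adjusted p = 2.32e-13). IFIH1 encodes MDA5, a sensor of long double-stranded RNA, and stood at 439, 585 and 459.5 in the MT1G libraries, against 109.6, 105 and 134 in the vector libraries (log2 change 2.08, SE 0.14, adjusted p = 6.87e-10). AIM2, a sensor of DNA in the cytosol, stood at 123, 123 and 116 in the MT1G libraries, against 30.7, 26.9 and 18.7 in the vector libraries (log2 change 2.23, SE 0.22, adjusted p = 2.26e-07). The groups were apart for all 3 genes, as they were for DDX60, DHX58 and ZC3HAV1 at log2 changes of 2.62, 1.91 and 1.80. TRIM25, the ubiquitin ligase that assists RIG-I, had a log2 change of -0.23 and lost its call when MT1G replicate 2 or any one vector library was left out.

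The oligoadenylate synthetase family split. OAS2, which makes the second messenger that activates RNase L, stood at 293, 322 and 236 in the MT1G libraries, against 1.096, 3.58 and 0 in the vector libraries, and OASL, a family member that assists RIG-I instead, at 13911, 12370.0 and 12613 in the MT1G libraries, against 167, 198 and 179 in the vector libraries (log2 change 6.16, SE 0.09, adjusted p = 1.79e-21). Both were far apart between groups, while OAS1 and OAS3 had small log2 changes. OAS1 had a log2 change of 0.32 and lost its call without MT1G replicate 1 or vector replicate 1, and OAS3 had 0.15 with a 95% interval of -0.00432 to 0.31 (adjusted p = 0.152). With 5 reads in the vector group, the log2 change of OAS2 (7.05, SE 0.45, adjusted p = 2.17e-07) depends on the pseudocount.

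The IFIT and IFI genes had the highest list median of the interferon roles, 1.12, with 7 of 11 tested members higher. IFIT1, which binds RNA lacking the cellular cap methylation, stood at 2373, 2786 and 2437 in the MT1G libraries, against 73.5, 107 and 75.8 in the vector libraries (log2 change 4.89, SE 0.13, adjusted p = 4.52e-15). IFIT2 and IFIT3, which form complexes with it, had log2 changes of 5.29 and 4.63. IFI44 stood at 1221, 1478 and 1187 in the MT1G libraries, against 29.6, 21.5 and 28.0 in the vector libraries (log2 change 5.57, SE 0.15, adjusted p = 7.12e-17), and its neighbour IFI44L had a log2 change of 3.37. No vector library came near an MT1G library for any of the 5. IFI6 had a log2 change of 1.12, and IFI35 one of -0.06 that did not pass the test (adjusted p = 0.718).

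Of 8 genes for the conjugation of ISG15, a ubiquitin-like protein, 6 were higher. ISG15 itself (GRCh38 chromosome 1, 1013497 to 1014540) stood at 13040.5, 12200.2 and 13564 in the MT1G libraries, against 701, 779.7 and 744 in the vector libraries (log2 change 4.12, SE 0.08, adjusted p = 3.69e-19). HERC5, the ligase that attaches it, stood at 3280.2, 4175 and 3666 in the MT1G libraries, against 367, 418 and 403 in the vector libraries (log2 change 3.22, SE 0.09, adjusted p = 4.7e-16). HERC6 and the conjugating enzyme UBE2L6 had log2 changes of 1.70 and 1.02, and USP18, which removes ISG15, one of 0.52. All 5 had groups that did not overlap, as did 5486 of all 13914 tested genes.

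Among 37 other tested effectors 17 were higher and 2 lower. CXCL10, a chemokine for T cells, stood at 75.5, 97.7 and 68.8 in the MT1G libraries, against 1.096, 0 and 2.33 in the vector libraries, and CXCL11, which uses the same receptor, at 61.6, 93.0 and 71.7 in the MT1G libraries, against 0, 1.79 and 0 in the vector libraries. RSAD2, which encodes viperin, stood at 37.8, 61.6 and 45.4 in the MT1G libraries, against 0, 0 and 3.50 in the vector libraries. The vector groups held only 3, 2 and 3 reads of these genes, so that no fold is given. MX2, a dynamin-like antiviral GTPase, stood at 25.8, 38.4 and 35.9 in the MT1G libraries, against 0, 1.79 and 1.17 in the vector libraries, whereas its relative MX1 stood at 46.7, 24.4 and 29.3 in the MT1G libraries, against 30.7, 30.4 and 35.0 in the vector libraries. MX1 had a log2 change of 0.01 with a 95% interval of -0.56 to 0.59. IFITM3, BST2 and EIF2AK2, all known interferon targets, also did not pass the test, with log2 changes of 0.02, -0.14 and 0.07 (adjusted p = 0.868, 0.187 and 0.635). These 3, MX1 and IFI35 were chosen after their values were seen.

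Antigen presentation could be read only in part. Of 135 protein-coding genes of the chromosome 6 interval from HLA-F to TAPBP, 10 (7.41%) had a mean of at least 10, against 59.5% on the rest of that chromosome, and genes that every cell uses, such as TUBB and RPS18, were at or near 0 there in all 6 libraries. HLA class I genes, TAP1 and PSMB8 lie in this interval and are only listed at or near 0. Outside it, B2M, the shared light chain of class I molecules, stood at 8071, 7972 and 5746 in the MT1G libraries, against 4027, 4778 and 4607 in the vector libraries (log2 change 0.69, SE 0.13, adjusted p = 0.00303), and its call was lost without MT1G replicate 2. The peptide-trimming enzyme ERAP2 and the peptide editor TAPBPL had log2 changes of 0.88 and 0.77, and the call for ERAP2 was lost without MT1G replicate 2 or vector replicate 2. In all, 4 of 10 tested genes of the list were higher and 0 lower.

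**Figure D2:**
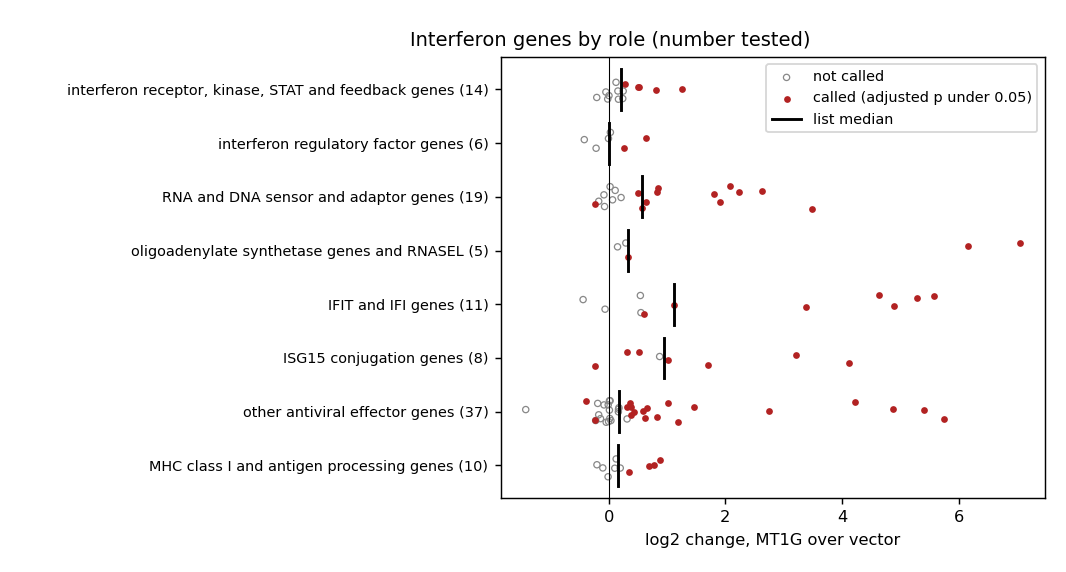
Each point is a tested gene of an interferon list, placed by its log2 change, MT1G over vector, in a row for its role; red points passed the test and open points did not, and black bars are list medians. OAS2 and OASL stand at 7.05 and 6.16 beside family members near 0, and the IFIT and IFI row has a median of 1.12.

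Outside the interferon lists, 1550 of 13806 tested genes were higher (11.2%) and 1572 lower (11.4%). Typical changes were small, with a median of 0.482 among the rises and -0.358 among the falls on the log2 scale, and 64 rises reached 2. Among the 12 largest rises with a mean of at least 100 and separate groups were those of SPOCK1, ISG20, FN1, NT5E, KLF4, IL7R, SERPINB5, FZD4, ITGA2, PLCG2 and PTGS2.

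SPOCK1 (GRCh38 chromosome 5, 136975298 to 137499326), a matrix proteoglycan, stood at 1729.6, 1746 and 1577 in the MT1G libraries, against 116, 117 and 109 in the vector libraries (log2 change 3.87, SE 0.10, adjusted p = 6.64e-17). FN1, fibronectin, stood at 4873, 4364 and 4057 in the MT1G libraries, against 537, 576 and 545 in the vector libraries (log2 change 3.00, SE 0.09, adjusted p = 2.88e-16). The lowest MT1G library was several times the highest vector library for both genes. ISG20, an RNA exonuclease that is a known interferon target although it was on no list used here, stood at 505, 519.8 and 557 in the MT1G libraries, against 63.6, 54.6 and 53.7 in the vector libraries (log2 change 3.18, SE 0.13, adjusted p = 3.23e-13). NT5E, the surface enzyme CD73 that makes adenosine, stood at 409, 571 and 373 in the MT1G libraries, against 59.2, 68.0 and 51.3 in the vector libraries (log2 change 2.88, SE 0.16, adjusted p = 9.61e-11). IL7R, the interleukin-7 receptor chain, stood at 372, 495 and 434 in the MT1G libraries, against 54.8, 63.6 and 61.8 in the vector libraries (log2 change 2.82, SE 0.14, adjusted p = 1.13e-11). Separate groups were a condition of the rule that picked ISG20, NT5E and IL7R. SERPINB5, FZD4, PLCG2, ITGA2 and PTGS2 had log2 changes of 2.82, 2.57, 2.47, 2.48 and 2.39. Below a mean of 100, ZBTB32, a zinc finger repressor, had 159, 133 and 138 with MT1G, against 0, 1.79 and 3.50 with vector, and CEACAM1, an adhesion receptor, had 63.6, 41.9 and 30.7 with MT1G, against 0, 0.90 and 0 with vector. Both were chosen after their values were seen, and the promoter of CEACAM1 held the ISRE core.

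The 12 largest falls by the same rule were smaller in size. CADM4, a cell adhesion molecule, stood at 154, 127 and 186 in the MT1G libraries, against 576, 556 and 497 in the vector libraries (log2 change -1.81, SE 0.13, adjusted p = 3.38e-09). MYLK3, a myosin light chain kinase of heart muscle, stood at 140.2, 116 and 134 in the MT1G libraries, against 455, 402 and 459.7 in the vector libraries (log2 change -1.75, SE 0.12, adjusted p = 2.01e-09). NOTUM, a secreted enzyme that inactivates Wnt proteins, stood at 131, 86.1 and 105 in the MT1G libraries, against 375, 346 and 338 in the vector libraries (log2 change -1.73, SE 0.15, adjusted p = 3.4e-08). The rule itself required every MT1G library to be below every vector library for each of the 12. TNNC1, RIMS4, WTIP, NAT8L, CTSH, TAGLN and KCNH5 had log2 changes from -1.53 to -1.15. The alkaline phosphatase genes ALPP and ALPG, with log2 changes of -1.23 and -1.25, are near-identical copies, and how reads were shared between them is not known.

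**Figure D3:**
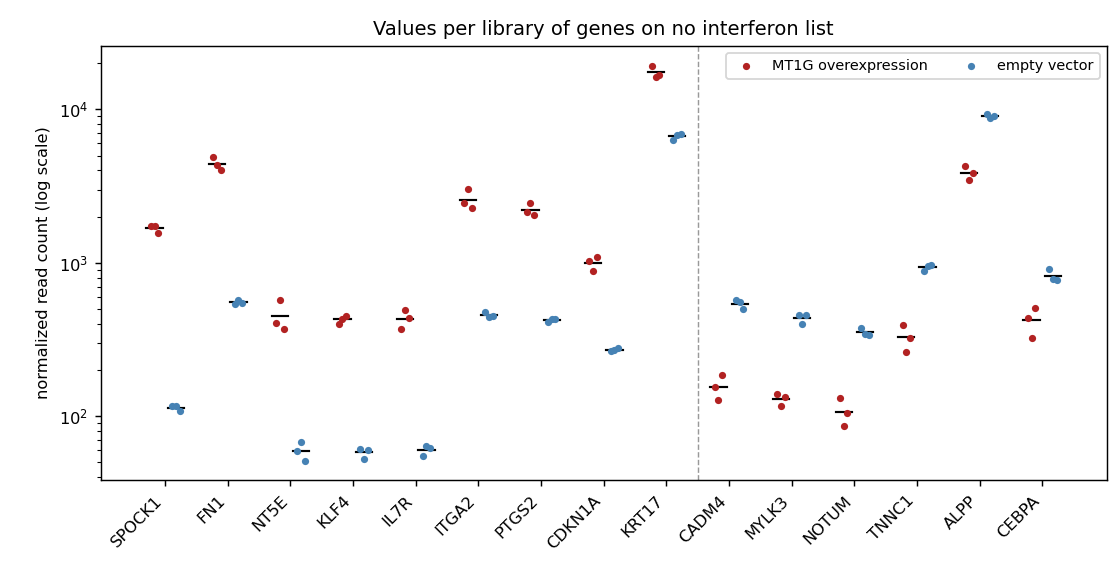
Normalized read counts on a log axis for 15 genes on no interferon list, with the 3 MT1G libraries in red left of the 3 vector libraries in blue and black bars for group means. Rises are left of the dashed line and falls right of it, and the groups are separate for all 15 genes. The naming rule required separate groups of the largest rises and falls. For FN1, the MT1G libraries start at 4057 and the vector libraries end at 576.

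Among the signalling lists, feedback and target genes of ERK, the kinase downstream of growth factor receptors and RAS, had 16 of 18 tested members higher and 0 lower. Their median was 0.519, and of all tested genes 11.5% were higher and 11.3% lower. Without vector replicate 2 or 3 the count of higher ERK genes was 13. ETV5, an ETS transcription factor induced by ERK, stood at 109, 124 and 98.8 in the MT1G libraries, against 14.3, 18.8 and 28.0 in the vector libraries (log2 change 2.43, SE 0.25, adjusted p = 3.97e-07). SPRY2, an inhibitor of the pathway, stood at 260.4, 226 and 226 in the MT1G libraries, against 61.4, 74.3 and 71.2 in the vector libraries (log2 change 1.77, SE 0.15, adjusted p = 3.04e-08). DUSP6, the phosphatase that switches ERK off, stood at 54.7, 69.8 and 50.5 in the MT1G libraries, against 19.7, 19.7 and 14.001 in the vector libraries (log2 change 1.66, SE 0.26, adjusted p = 0.000141). These 3 were picked for the size of their change and had separate groups, as did 5486 of all 13914 tested genes. Among 14 EGF receptor and ligand genes 5 were higher and 3 lower: the ligands EPGN, EREG and TGFA had log2 changes of 2.54, 0.83 and 0.65, and the ligand NRG1 one of -0.88. Immediate early genes, which growth factors induce within minutes, had 9 of 17 higher and 2 lower, led by NR4A2 and JUNB at 0.88 and 0.65, with BTG2 at -0.42, a call lost when any one library other than MT1G replicate 3 was left out.

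The NF-kB feedback, cytokine and chemokine genes had 11 of 26 tested members higher and 1 lower, with a median of 0.355. The shares over all tested genes were 11.5% higher and 11.3% lower. IL6, an inflammatory cytokine, stood at 166, 133 and 125 in the MT1G libraries, against 10.96, 22.4 and 19.8 in the vector libraries (log2 change 2.97, SE 0.25, adjusted p = 2.82e-08). PTGS2, the inducible cyclooxygenase, stood at 2155, 2457 and 2055 in the MT1G libraries, against 409, 431 and 428 in the vector libraries (log2 change 2.39, SE 0.09, adjusted p = 4.78e-14). CXCL8, a neutrophil chemokine, stood at 24.9, 22.1 and 22.7 in the MT1G libraries, against 5.48, 3.58 and 5.83 in the vector libraries (log2 change 2.04, SE 0.40, adjusted p = 0.00106). The groups of these 3, picked for the size of their change, did not overlap. Separate groups were seen for 5486 of all 13914 tested genes. TNFAIP3, a feedback inhibitor of NF-kB, had a log2 change of 1.58, and TNFAIP2 one of -0.36. The chemokine CCL2, on the same list but under the mean of 10 and named after its values were seen, had 2.98, 0 and 1.46 in the MT1G libraries, against 10.96, 15.2 and 9.33 in the vector libraries. Its groups did not overlap, and with no filter on low values 2 genes of the list were lower. The ID, SMAD and BMP feedback genes had 10 of 21 higher and 2 lower, with ID2 and SKIL at 1.15 and 0.87 and the signal transducer SMAD3 at -0.50. Of 17 KLF and SP transcription factors 8 were higher and 0 lower, a count of 4 without vector replicate 1 or 2, and after KLF4 the next were KLF12 and KLF2 at 0.82 and 0.82. The groups overlapped for KLF2, whose call was lost without MT1G replicate 1 or vector replicate 1 or 2.

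Genes for attachment to matrix or to other cells were higher more often than lower, beside 11.5% higher and 11.3% lower over all tested genes. Median spans on the chromosome were 98.3 kb (matrix list) and 58.9 kb (integrin and cadherin list). In classes 8 and 9 of 10 by span (10 longest), 16.9% and 20.1% of genes were higher and 6.79% and 7.64% lower. With the class median subtracted from each gene, the matrix median of 0.205 became 0.113 and the integrin one of 0.41 became 0.348. The part of span in these counts was not tested. Of 20 tested genes of the integrin and cadherin list, which also holds the cell adhesion molecule CADM4, 10 were higher and 1, CADM4, lower, with a median of 0.41. ITGB8, an integrin that activates latent TGF-beta, stood at 125, 134 and 139.8 in the MT1G libraries, against 12.1, 12.5 and 16.3 in the vector libraries (log2 change 3.20, SE 0.23, adjusted p = 1.75e-09). ITGA2, a collagen receptor chain, stood at 2446, 3009.6 and 2272 in the MT1G libraries, against 479, 442 and 450.4 in the vector libraries (log2 change 2.48, SE 0.10, adjusted p = 1.28e-13). ITGA1, the chain of another collagen receptor, stood at 2299, 3188 and 2739 in the MT1G libraries, against 909, 873 and 876 in the vector libraries (log2 change 1.62, SE 0.10, adjusted p = 4.7e-10). All 3, picked for the size of their change, had separate groups, as did 5486 of all 13914 tested genes. Matrix genes had 9 of 27 higher and 3 lower, and beside SPOCK1 and FN1 the small proteoglycan DCN had a log2 change of 0.98 and the collagen COL5A2 one of -0.59. DCN and LUM are also on the stellate cell list given above. Of 16 plasminogen activator and metalloproteinase genes 7 were higher and 2 lower, or 1 lower when any one library was left out or with TMM scaling, among them the inhibitor SERPINE2 at 2.15, the protease PLAU at 1.86 and its receptor PLAUR at 1.24, with MMP24 at -1.102. The EMT list, on the shift from epithelial to mesenchymal features, moved both ways, with 5 of 20 higher and 5 lower. The mesenchymal factors SNAI2 and ZEB2 had log2 changes of 1.17 and 0.61, the epithelial keratin KRT7 one of 0.38 and the epithelial adhesion molecule EPCAM one of -0.53. Without vector replicate 2 or 3 the higher count was 3.

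Smooth muscle and contractile genes had 8 of 21 tested members lower and 0 higher, with a median of -0.219. Over all tested genes 11.3% were lower and 11.5% higher. The list holds 28 genes, and members below the filter on low values were not tested. Among these, ACTA2 had 5.96, 17.4 and 3.66 with MT1G, against 3.29, 3.58 and 2.33 with vector. CNN1 had 4.97, 4.65 and 5.85 with MT1G, against 2.19, 1.79 and 3.50 with vector. Both were named after their values were seen. Their groups did not overlap, from 26 and 17 reads with MT1G and 9 and 7 with vector. TNNC1, the calcium sensor of slow muscle, stood at 396, 263 and 323 in the MT1G libraries, against 887, 949 and 967 in the vector libraries (log2 change -1.53, SE 0.12, adjusted p = 5.12e-08). TAGLN, an actin-binding protein of smooth muscle, stood at 106, 64.0 and 83.4 in the MT1G libraries, against 209, 188 and 166 in the vector libraries (log2 change -1.16, SE 0.18, adjusted p = 8.46e-05). With MYLK3 these were the strongest falls of the list, and the abundant FLNA had a log2 change of -0.26, a call lost when MT1G replicate 2 or any one vector library was left out. YAP and TEAD targets were split, with 7 of 23 higher and 6 lower, and so were Wnt feedback genes, with 2 of 11 each way.

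Of 25 p53 targets 7 were higher and 1 lower, or 4 higher without vector replicate 2. CDKN1A, the p21 inhibitor of cyclin-dependent kinases, stood at 1028, 888 and 1089.6 in the MT1G libraries, against 268, 271 and 278 in the vector libraries (log2 change 1.87, SE 0.10, adjusted p = 2.21e-11). PMAIP1, the death-promoting protein NOXA, stood at 1104, 1216 and 1038 in the MT1G libraries, against 333, 328 and 319.7 in the vector libraries (log2 change 1.77, SE 0.09, adjusted p = 2.21e-11). FAS, a death receptor, stood at 86.5, 101 and 87.8 in the MT1G libraries, against 31.8, 43.9 and 25.7 in the vector libraries (log2 change 1.45, SE 0.22, adjusted p = 8.98e-05). The groups were apart for all 3, which were picked for the size of their change, and for 5486 of all 13914 tested genes. S phase and replication genes had 8 of 35 lower and 0 higher, with UNG, TYMS and POLD1 at -0.44, -0.39 and -0.38. G2 and mitosis genes had 9 of 34 lower and 5 higher, with AURKB at -0.41 and CENPE at 0.55. The call for CENPE was lost without MT1G replicate 2. Over all tested genes 11.5% were higher and 11.3% lower, and in the 2 most abundant of 10 classes by mean level 20.8% and 28.0% were lower. The part of abundance in the S phase and mitosis counts was not tested. Without vector replicate 3 the lower counts were 3 for S phase and 4 for mitosis genes, and the S phase count was 5 without MT1G replicate 2 or vector replicate 2. The count of higher mitosis genes was 1 without MT1G replicate 2, 3 without vector replicate 2 and 2 without vector replicate 3.

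The metabolic lists held more lower than higher genes. Of 22 glycolysis genes 9 were lower and 1 higher, and ALDOA stood at 247, 212 and 221 in the MT1G libraries, against 409, 392.1 and 380.4 in the vector libraries (log2 change -0.80, SE 0.11, adjusted p = 3.76e-05), while the glucose transporter SLC2A3 stood at 135, 117 and 108 in the MT1G libraries, against 70.2, 59.1 and 52.5 in the vector libraries (log2 change 0.98, SE 0.18, adjusted p = 0.000556). Of 25 sterol genes 8 were lower and 1 higher, with TM7SF2, a sterol reductase, at 101, 102 and 110.5 in the MT1G libraries, against 234, 242 and 190.2 in the vector libraries (log2 change -1.07, SE 0.14, adjusted p = 1.95e-05). The groups did not overlap for ALDOA, SLC2A3 or TM7SF2, each picked for the size of its change. Separate groups were seen for 5486 of all 13914 tested genes. Of 17 fatty acid genes 7 were lower and 0 higher, led by MLXIPL, which encodes the glucose-sensing factor ChREBP, at -0.97. Of 41 nuclear respiratory chain genes 10 were lower and 1 higher, and of 25 NRF2 and antioxidant genes 9 were lower and 4 higher, with ABCC3 at 0.76. Over all tested genes 11.3% were lower, and in the 2 most abundant of 10 classes by mean level the shares were 20.8% and 28.0%; the part of abundance in these counts was not tested. The counts moved with single libraries. Without vector replicate 2 the lower counts were 5 for glycolysis, 4 for sterol, 3 for respiratory chain and 3 for NRF2 genes, and without vector replicate 3 they were 4 for sterol, 4 for fatty acid, 3 for respiratory chain and 3 for NRF2 genes. Without MT1G replicate 2 there were 4 lower sterol and 5 lower NRF2 genes, without vector replicate 1 there were 5 sterol and 6 respiratory chain genes, and without MT1G replicate 3 there were 16 respiratory chain genes.

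Liver transcription factors had 4 of 13 tested members lower and 1 higher, beside 11.3% lower and 11.5% higher over all tested genes. CEBPA, a factor of hepatocyte differentiation, stood at 434, 326 and 504 in the MT1G libraries, against 913, 782 and 778 in the vector libraries (log2 change -0.99, SE 0.14, adjusted p = 0.000198), and HNF4A, a nuclear receptor that governs hepatocyte genes, at 228, 200.02 and 217 in the MT1G libraries, against 344, 303 and 321 in the vector libraries (log2 change -0.59, SE 0.12, adjusted p = 0.00126). Both were picked for the size of their change and had separate groups, as did 5486 of all 13914 tested genes. Without vector replicate 1 the lower count was 2. Only 8 of 41 hepatocyte secreted and metabolic genes were tested, and 2 of them were lower.

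Among genes for metals, 4 of 5 tested metallothioneins were higher, MT1G among them, or 2 without MT1G replicate 2 or vector replicate 2. Beside the counts of this paragraph, 11.5% of all tested genes were higher and 11.3% lower. MT2A stood at 8149.9, 7288 and 5699 in the MT1G libraries, against 4305, 4564 and 4992 in the vector libraries (log2 change 0.60, SE 0.11, adjusted p = 0.0027), and MT1X and MT1E had log2 changes of 0.71 and 0.27. The call for MT2A was lost without MT1G replicate 2 and that for MT1X without vector replicate 2. The groups were separate for each, but the family shares near-identical sequence, so reads may be split among members. Of 23 zinc and copper transport genes 6 were higher and 2 lower, with the exporter SLC30A1 at 0.42 and the importer SLC39A8 at 0.43, and 3 were higher without vector replicate 3. TMM scaling gave 8 higher and 0 lower, and the lower count was 0 without MT1G replicate 1 or 2 or vector replicate 1 or 2. ER chaperones and unfolded protein genes had 6 of 21 higher and 1 lower, with DNAJC3 at 0.66 and HSP90B1 at 0.59. Hypoxia-induced genes outside glycolysis had 6 of 26 higher and 2, CA9 and BNIP3, lower, with ANGPTL4 at 1.38, and without MT1G replicate 3 there were 9 higher and 4 lower. Of 16 DNA methylation genes 4 were higher and 5 lower, with TET2 at 0.44 and IDH2 at -0.66. Without vector replicate 3 the counts were 0 higher and 1 lower, without vector replicate 2 they were 2 and 2, and without MT1G replicate 2 they were 1 and 3. The lower count was 2 without vector replicate 1 and 8 without MT1G replicate 3.

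The other lists moved both ways or little, beside 11.5% higher and 11.3% lower over all tested genes. BCL2 family and death receptor genes had 5 of 30 tested members higher and 0 lower, and replication-dependent histone genes had 2 of 18 higher and 0 lower, or 1 higher without MT1G replicate 1 or 2 or vector replicate 1 or 2. Ferroptosis and iron genes had 7 of 17 higher and 4 lower, with ACSL3 at 0.79 and LPCAT3 at -0.47, and the lower count was 1 without MT1G replicate 2 or vector replicate 2 or 3. The amino acid response genes of ATF4 had 5 of 31 higher and 6 lower. SLC7A11, the cystine importer, had a log2 change of 0.64, and PHGDH, the first enzyme of serine synthesis, one of -0.71. Their lower count was 3 without vector replicate 3, and their higher count 3 without MT1G replicate 2 or vector replicate 1 and 2 without vector replicate 2. Notch genes had 2 of 16 higher and 4 lower, with leave-one-out counts of lower genes down to 1, and JAG1, a Notch ligand, had a log2 change of 1.13. Mitochondrially encoded genes had 1 of 13 each way, carbonic anhydrases 1 of 6 each way and cyclin D and CDK inhibitor genes 3 of 11 each way. Of the last list 1 gene was lower when any one vector library was left out. The higher carbonic anhydrase call was lost without vector replicate 2 or 3. The mitochondrial higher count was 4 without MT1G replicate 3 and 2 without vector replicate 3, and the lower count was 2 without MT1G replicate 1 and 0 without MT1G replicate 2 or 3 or vector replicate 2 or 3. Heat shock genes had 3 of 14 higher and 2 lower, and the higher count was 0 without vector replicate 2 and 1 without vector replicate 3 or MT1G replicate 2. Counts of 0 to 2 on other lists also moved by 1 or 2 genes when single libraries were left out.

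**Figure D4:**
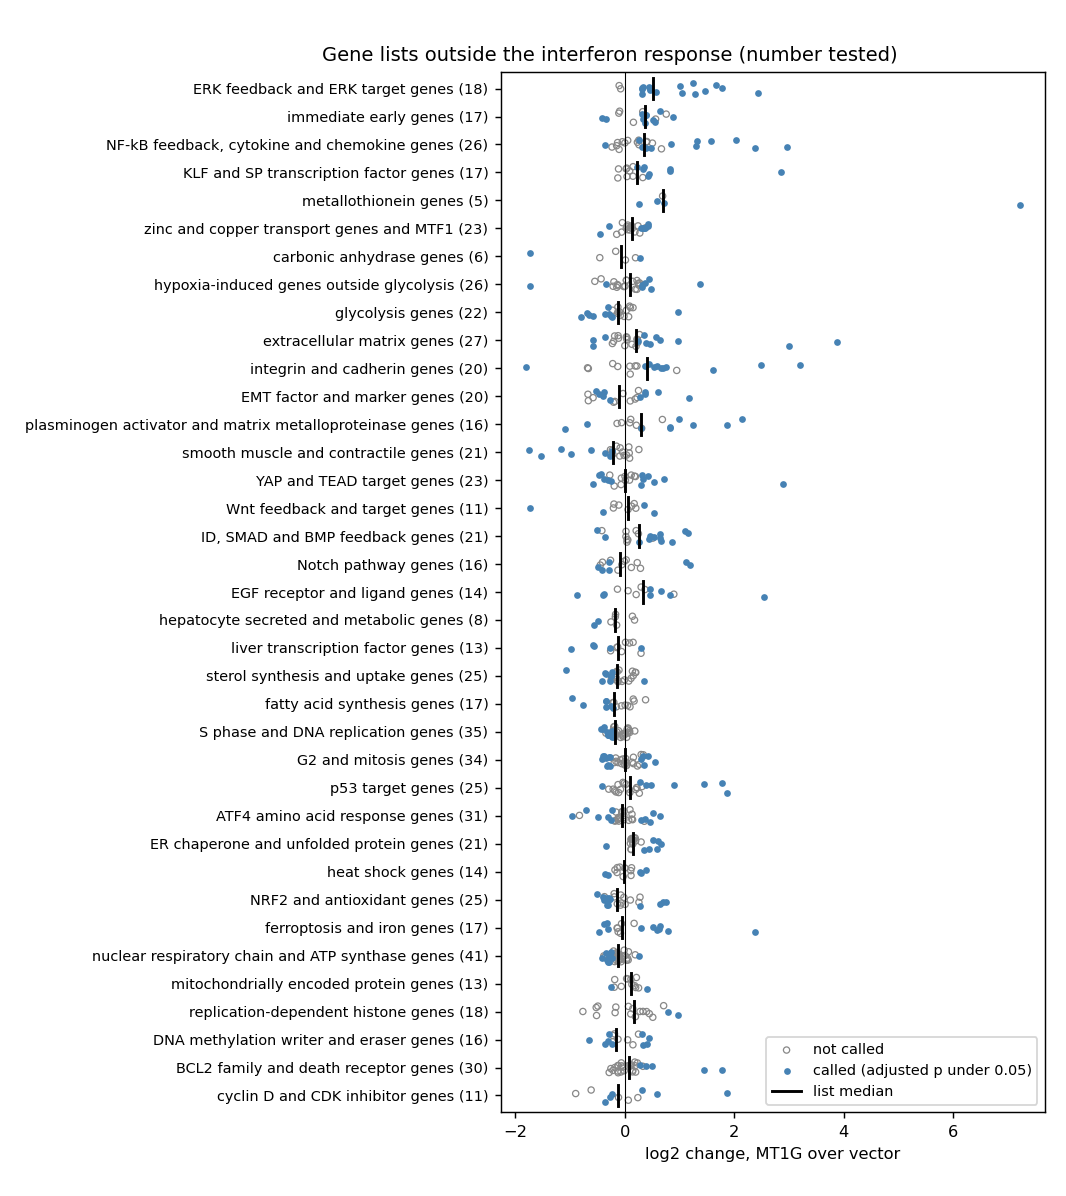
Each point is a tested gene of a list outside the interferon response, placed by its log2 change, MT1G over vector; blue points passed the test, open points did not, and black bars are list medians. The ERK row has 16 of 18 called members, all higher, and the contractile row has 8 of 21, all lower.

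Change also followed the length of the gene on the chromosome. RefSeq gave a place for 12964 tested genes (93.2%), which were put in 10 classes by span. The median log2 change was -0.124 in the shortest class (median span 2.24 kb) and 0.107 in the longest (240 kb), the share called higher was 4.93% in the shortest and 19.7% in the longest, and the share called lower 12.1% and 7.79%. By library, the medians relative to the vector mean were -0.195 in the shortest and 0.203 in the longest class for MT1G replicate 2, -0.0873 and 0.0529 for replicate 1, and -0.0319 and 0.0619 for replicate 3. The slope was steepest in MT1G replicate 2, the library of lowest depth. Abundance moved with it: of 10 classes by mean level, the most abundant had a median of -0.131 with 28.0% lower, and the least abundant one of 0.0662. Among chromosomes, 19 had the lowest median (-0.161, with 25.6% lower) and 4 the highest (0.138, with 20.8% higher). When the median of its span class was subtracted from each gene, an alternative chosen after seeing the data, 5 of 46 list medians moved by over 0.1. They were those of the IFIT and IFI, metallothionein, replication-dependent histone, cyclin D and CDK inhibitor, and mitochondrially encoded lists. Of the last list only 1 of 13 tested genes had a span, so its medians before and after cover different genes. The part of gene span in the other list counts was not tested.

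**Figure D5:**
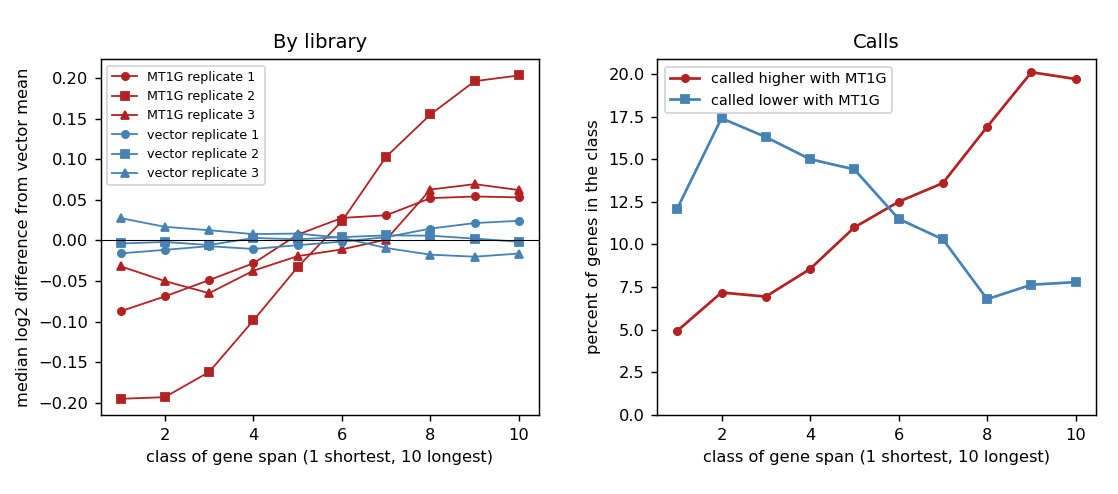
Left, the median log2 difference from the vector mean in each of 10 classes of gene span, 1 line per library (MT1G red, vector blue). Right, the percent of each class called higher (red) or lower (blue) with MT1G; the share called higher is 4.93% in class 1 and 19.7% in class 10.

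The sorafenib experiment of the series, with its own DMSO controls and its own normalization, gave values to set beside these. Of 13748 genes tested in both tables, 31.2% were higher and 38.8% lower with sorafenib than with DMSO. Of the 1569 of them that were higher with MT1G, 35.2% were higher and 38.9% lower with sorafenib, near those shares. Of the 1574 lower with MT1G, 18.9% were higher and 55.2% lower with sorafenib. The difference between the tables was not tested. KLF4 had log2 changes of 2.86 with MT1G and 3.00 with sorafenib, OASL 6.16 with MT1G and -1.11 with sorafenib, ISG15 4.12 with MT1G and -0.17 with sorafenib, and FN1 3.00 with MT1G and -0.35 with sorafenib.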

How the data were processed

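The submitters' processing notes name cutadapt, HISAT2 1.1.0, featureCounts 1.6.1 and DESeq2 with the hg38 genome, with no role or order. The deposited signal, normalized read counts per gene, was made by the authors by dividing reads by 1 size factor per library; every value was a whole multiple of the smallest value of its column within 0.001. For 1 MT1G column that step (0.994) lay too near 1 to tell whole reads from rounding, so no test on counts was run, and its read total is a description. Totals ran from 16844722 to 26781600 reads. The log2 fold changes and adjusted p-values of the authors' deposited table served only for a comparison of calls.

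Columns were matched to groups by their names, treatment and control. Genes with a mean of at least 10 entered a moderated linear model of limma 3.58.1 under R 4.3.3 (trend and robust variance, two-sided) on log2(value + 1), a scale that understates changes of low genes, with Benjamini-Hochberg adjustment at 0.05. The 50 gene lists (1089 genes), the naming rule and the tests were chosen with earlier results of these data known. Lists were described by counts and medians, with no test of a list. Named genes were MT1G, KLF4, CA9 and DNMT1, the 8 largest rises on interferon lists, the 12 largest rises and falls outside them (mean of at least 100, separate groups), up to 3 leading members and 1 opposed member of each list with 3 or more calls, 6 abundant genes and genes at 0 in a group; other list members and genes were named after their values were seen, and not every gene the rule picks is reported here. Gene places came from RefSeq GRCh38.p14. The fit was tested on simulated data. Alternatives were TMM factors (edgeR 4.0.16), other filters and pseudocounts, a replicate block, leaving out each library, and gene span classes. Sorafenib and DMSO libraries were fitted separately in the same way. ATAC-seq files were not used here.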

Additional observations from a re-analysis of the deposited data

How the results depend on the processing

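Of the 13914 tested genes, 1604 were higher and 1575 lower with MT1G, and with each library left out in turn the counts ran from 1003 to 1824 higher and from 766 to 2010 lower. The lowest counts came without vector replicate 3. An absolute log2 change of at least 1 left 289 higher and 69 lower. TMM scaling gave 1729 and 1366 and moved the median of all genes by 0.0213, no filter gave 1640 and 1556, and a mean of at least 100 gave 1398 and 1551. The column numbers did not pair the samples: deviations of same-numbered libraries correlated at -0.14, 0.04 and -0.06, and a replicate block gave 1691 higher and 1566 lower. The planned DESeq2 and edgeR tests were not run, since whole reads were not established for 1 MT1G column. The authors' deposited table held 1418 higher and 1475 lower genes, and 2788 calls were shared in direction, 87.7% of those here and 96.4% of theirs.

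For 163 named genes, 1931 values under the alternatives kept their direction, and 119 of them, in 38 genes, no longer passed the test. Most of these genes were named because their changes were called in these same data. Where groups do not overlap, leaving out a library cannot reverse a direction, so kept directions are no test of the result. Of 1176 counts of list members, 168 moved by over 1.5 times. With 3 libraries a group, and at 16844722 to 26781600 reads a library, genes of few reads are read least well. The cause of these shifts was not tested.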
